A study of Takifugu alboplumbeus with 24 samples.

Results

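The data described here are brain transcript levels of wild male grass puffers (Takifugu alboplumbeus) on the last 2 of 8 weekly sampling dates, Waning moon July 2020 and Full moon July 2020. The members were chosen by these labels alone and are 6 of the 24 libraries of the series, 3 for Waning moon July and 3 for Full moon July. The fish were caught at a spawning site at Minamichita, Japan, and brought alive to the laboratory, where a piece of brain (hypothalamus, pituitary and ventral telencephalon) was taken at around 19:00. All libraries of both dates share sex, site, tissue and hour, no treatment is given, and the labels state no age. The labels do not say that a library is a separate animal, so the p-values measure only the spread between libraries. For the tests of single genes that spread was taken within dates over all 24 libraries. Each date is also a single moon phase, tide and calendar day, and these cannot be told apart in the comparison.

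Grass puffers spawn in groups on beaches around the spring tides, which come with new and full moon, and a neap tide falls midway between them. In fish, gonadotropin-releasing hormone neurons of the preoptic area reach the pituitary, where gonadotrophs make luteinizing hormone and follicle-stimulating hormone from a shared alpha subunit and separate beta subunits. Sex steroids act back on the brain, and radial glia of the fish brain hold much aromatase, the enzyme that makes oestrogen from androgen.

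Levels are the authors' FPKM, which are fragments normalized to transcript length and to the mapped fragments of the library, for 24935 genes and transcripts, and 17058 with a mean of at least 1 FPKM over the 24 libraries were tested. Differences are log2 changes of FPKM + 1, Waning moon July minus Full moon July, with their standard error (SE) from limma across all 8 dates and p-values adjusted over all genes tested. Read depth is unknown, because FPKM keep no read numbers. FPKM summed over a library came to 484265, 445550 and 452254 at Waning moon July and to 551840, 544203 and 527419 at Full moon July, a difference in the exact two-sided permutation test of p = 0.1, the smallest that 3 libraries against 3 allow. Markers of the named tissues were present on both dates, with summed FPKM of telencephalon markers of 44.6 to 58.1 at Waning moon July and 35.1 to 49.4 at Full moon July, and pituitary and hypothalamic sums beside their results. Correlations of log2 levels lay between 0.969 and 0.982 within Waning moon July, between 0.968 and 0.975 within Full moon July and between 0.934 and 0.96 across them. Waning moon July library 1 was the closest to Full moon July, with correlations of 0.957 to 0.96, against 0.934 to 0.946 for libraries 2 and 3. Outside these dates, Waxing moon May library 2 stood apart by a low pituitary hormone score of 4.542 (the mean over 8 hormone genes of their log2 level), and it widens the shared spread of the hormone genes.

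At Waning moon July 5165 genes, 30.3% of those tested, differed from Full moon July at a limma adjusted p under 0.05. Of these, 3331 were higher (19.5% of the genes tested) and 1834 were lower (10.8%). The median change over all genes tested was 0.06 on the log2 scale, and the medians of the called genes were 0.43 for those higher and -0.55 for those lower. Large changes were more often decreases: on the scale of FPKM + 1, 264 of the called genes fell by more than 2-fold and 28 by more than 4-fold, against 111 and 5 that rose as far. In 7233 genes, 42.4% of those tested, the 3 libraries of the dates did not overlap, with Waning moon July higher in 4582 (26.9%) and lower in 2651 (15.5%).

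The direction of small changes rested on the scaling. Higher genes made up 64.5% of the calls on FPKM, 89.9% (7320 higher, 825 lower) when each library was rescaled to the same sum, and 49.9% (2395 higher, 2403 lower) under median-ratio scaling. Rescaling to the same sum moved the median of all genes to 0.26. Gene lists given below under that rescaling are to be set beside this median. Of all 17058 genes tested, 7320 were higher and 825 lower there. When the log2 FPKM sum entered the fit as a covariate, 19 genes passed, 9 higher and 10 lower. Since the sum separates the dates, what moves with it and what moves with the date cannot be told apart. The sum also holds the tested genes themselves. A call lost in that fit, here or below, therefore decides nothing about the gene. The count was 3023 without Waning moon July library 2, 3311 without Waning moon July library 3 and 3200 when only the 6 libraries were fitted.

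The transcript of LH beta, a gonadotropin subunit, was far lower at Waning moon July. It (LOC101078229, the subunit that gives luteinizing hormone its identity) stood at 34.2, 446 and 116 FPKM in the Waning moon July libraries, against 8091, 8902 and 7026 FPKM in the Full moon July libraries. Each Waning moon July library was below every Full moon July library, and the log2 change of -6.02 (SE 1.23, limma adjusted p = 0.00191) was the largest decrease among the genes that passed. With the log2 FPKM sum as a covariate the change was -3.37 and did not pass (limma adjusted p = 0.543). That sum includes LH beta and separates the dates, so this fit cannot tell a change of LH beta from a change of the sum. In tissue of many cell types, fewer cells of a type and less RNA per cell cannot be told apart.

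The alpha subunit that luteinizing hormone shares with follicle-stimulating hormone and thyrotropin (cga) had 2558, 6679 and 3002 FPKM at Waning moon July and 34718, 19527 and 15520 FPKM at Full moon July. The groups did not overlap, but the change of -2.56 (SE 1.04) did not pass, with a limma adjusted p = 0.0681. Without Waxing moon May library 2 the same change passed, with a limma adjusted p = 0.000588, and under quantile normalization it was -0.97 with a limma adjusted p = 0.493. Somatotropin, the growth hormone (LOC101061166), behaved alike, at 242, 253 and 177 FPKM at Waning moon July and 1550, 1214 and 718 FPKM at Full moon July. Its change of -2.32 (SE 0.94) had a limma adjusted p = 0.0681 with all libraries and 0.00165 without Waxing moon May library 2.

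The other hormones differed less. Pro-opiomelanocortin (LOC101064982), the precursor of corticotropin and melanotropin, had 10302, 8832 and 11353 FPKM at Waning moon July and 16711, 21185 and 16258 FPKM at Full moon July, with a change of -0.83 (SE 0.86, limma adjusted p = 0.486). These libraries did not overlap, and without Waxing moon May library 2 the limma adjusted p was 0.0438. Thyrotropin beta (LOC101067051) had 53.2, 72.9 and 63.8 FPKM at Waning moon July and 92.5, 264 and 88.6 FPKM at Full moon July (change -1.03, SE 0.88, limma adjusted p = 0.385). Without Full moon July library 2, the highest, its change was -0.52. Follicle-stimulating hormone beta (LOC101071898) overlapped, with 95.6, 100 and 86 FPKM at Waning moon July and 66.8, 110 and 48.4 FPKM at Full moon July. Prolactin (prl) overlapped as well, with changes of 0.40 for follicle-stimulating hormone beta and -0.27 for prolactin, neither past the threshold. The change of follicle-stimulating hormone beta was 0.71 without Full moon July library 2 and 0.12 without library 3, and that of prolactin lay between -0.64 and 0.0092 with single July libraries left out.

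Of 9 pituitary hormone genes tested, 1 was lower and none higher, against 10.8% and 19.5% of all genes, and their median change was -0.83 beside 0.06 for all genes. Without Waxing moon May library 2, 4 of the 9 were lower. The hormone score over 8 of them was 8.944, 9.6 and 9.115 at Waning moon July and 10.952, 11.113 and 10.443 at Full moon July (exact two-sided permutation p = 0.1). Without the 3 gonadotropin subunits it was 9.68 ± 0.0603 at Waning moon July and 10.63 ± 0.356 at Full moon July (SD, n = 3 each). How much pituitary each brain piece held was not measured, and its part in these results was not tested.

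In the hypothalamus and telencephalon, gnrh1, the gonadotropin-releasing hormone of the preoptic area, had 5.27, 7.52 and 3.05 FPKM at Waning moon July and 48, 5.2 and 35.4 FPKM at Full moon July. Full moon July library 2 lay within the Waning moon July range, and the change of -1.89 (SE 0.84) did not pass (limma adjusted p = 0.0924). Without that library the change was -2.81 with a limma adjusted p = 0.0241. Full moon July libraries 1 and 3 were also high in the summed FPKM of 11 hypothalamic and preoptic markers, with 336, 190 and 150 at Waning moon July and 1180, 154 and 1120 at Full moon July. The median centred log2 levels of these markers went the other way, with 0.17, 0.16 and 0.02 at Waning moon July and -0.18, -0.28 and -0.11 at Full moon July. Of the 11, 4 were higher at Waning moon July (36.4%, beside 19.5% of all genes) and none lower. The part of these markers in the result was not tested.

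Brain aromatase and the androgen and progesterone receptors were lower at Waning moon July. Brain aromatase (pfcyp19b-tstr) had 92.7, 99.9 and 96.6 FPKM at Waning moon July and 249, 182 and 217 FPKM at Full moon July, with a change of -1.15 (SE 0.19, limma adjusted p = 0.000404). The androgen receptor (LOC101067852) had 2.91, 2.19 and 2.11 FPKM at Waning moon July and 15, 5.29 and 6.46 FPKM at Full moon July, with a change of -1.43 (SE 0.34, limma adjusted p = 0.00477). The libraries of both genes did not overlap. The progesterone receptor (pgr), named after its values were seen, fell by 1.70 (SE 0.44, limma adjusted p = 0.008), with 0.38, 0.57 and 0.54 FPKM at Waning moon July and 8.99, 2.96 and 1.91 FPKM at Full moon July. Without Full moon July library 1, the highest, its change was -1.18 with a limma adjusted p = 0.0524. Of 11 radial glia and astrocyte markers tested, 4 were lower (36.4%, beside 10.8% of all genes), brain aromatase itself among them. None was higher, beside 19.5% of all genes, and the median was -0.34. In all 36.4% of these markers were called, beside 30.3% of all genes. Their median centred log2 levels were -0.15, -0.29 and -0.26 at Waning moon July and 0.02, 0.13 and 0.38 at Full moon July, without overlap, while their summed FPKM overlapped, at 1710 to 2130 at Waning moon July and 1920 to 2190 at Full moon July. The part of radial glia in the change of aromatase was not tested.

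Of 21 reproductive genes tested, those 3 and LH beta were lower (19.0%, beside 10.8% of all genes) and 1 was higher (4.76%, beside 19.5%). In all 23.8% were called, fewer than the 30.3% of all genes. The higher one was a gonadotropin-releasing hormone receptor (LOC101075421) with 7.7, 10.2 and 9.22 FPKM at Waning moon July and 4.42, 6.49 and 5.86 FPKM at Full moon July. Its change was 0.61 (SE 0.14, limma adjusted p = 0.00436). The median over the list was -0.09. It was 0.04 after rescaling to the same sum, -0.42 with a pseudocount of 0.1, -0.63 over the genes with a mean of at least 5 FPKM and -0.45 without Waning moon July library 2. Of 15 genes of steroid synthesis, 6 were lower (40%, beside 10.8% of all genes) and none higher, with a median of -0.40. They include brain aromatase and hsd3b7, an enzyme of bile acid synthesis in mammals, which had 20.6, 12.5 and 9.09 FPKM at Waning moon July and 63.3, 64.7 and 58.8 FPKM at Full moon July (change -2.14, SE 0.39, limma adjusted p = 0.00092). The others named by the rule are cytochrome b5 (LOC101077599, -0.63) and srd5a1, the 5 alpha-reductase (-0.65), both past the threshold.

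**Figure D1:**
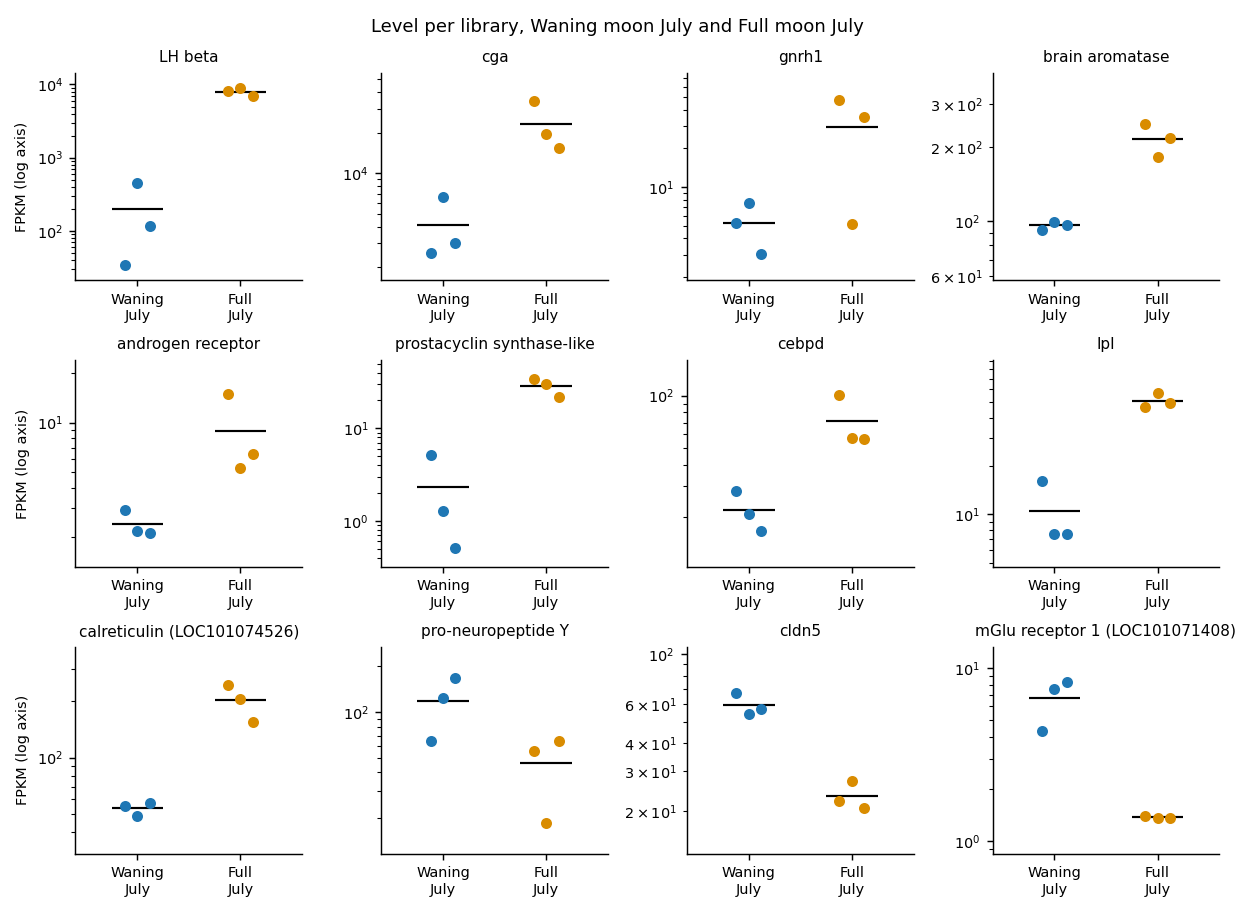
FPKM on log axes of 12 genes in the 3 Waning moon July libraries (blue, left) and the 3 Full moon July libraries (orange, right), with the mean as a line. LH beta lies between 34.2 and 446 FPKM at Waning moon July and between 7026 and 8902 FPKM at Full moon July, and of the genes drawn gnrh1 is the one whose libraries overlap.

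Genes of the secretory pathway fell together. Proteins bound for export are folded in the endoplasmic reticulum by chaperones and disulfide isomerases, and the unfolded protein response raises these helpers when the load is high. Of 73 such genes tested, 48 were lower at Waning moon July (65.8%, beside 10.8% of all genes) and 4 were higher (5.48%, beside 19.5%), with a median change of -0.46. The count was 31 lower and 9 higher after rescaling to the same sum, and 37 lower and none higher when only the 6 libraries were fitted.

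Calreticulin (LOC101074526), a calcium-binding chaperone, had 55.3, 48.9 and 56.9 FPKM at Waning moon July and 245, 207 and 156 FPKM at Full moon July, with a change of -1.87 (SE 0.22, limma adjusted p = 6.85e-05). A second calreticulin gene (calr) fell by 1.01 (SE 0.14, limma adjusted p = 0.000156), and reads that fit both copies make the level of each less certain. The stress-induced chaperone creld2 had 13.3, 12.2 and 11.7 FPKM at Waning moon July and 69.1, 41.3 and 39.1 FPKM at Full moon July (change -1.88, SE 0.23, limma adjusted p = 8.02e-05). In all of these the dates did not overlap. The disulfide isomerase pdia3 was lower by 1.02 (SE 0.14, limma adjusted p = 0.000118).

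Beyond the naming rule, the main chaperone of the compartment, hspa5, had 36.2, 45.4 and 45.5 FPKM at Waning moon July and 234, 158 and 104 FPKM at Full moon July (change -1.87, SE 0.28, limma adjusted p = 0.00027), and hsp90b1 changed by -1.76. Both were named after their values were seen, as were the 4 higher members, which are sec62 (0.27), a calnexin (LOC101069714, 0.44) and 2 edem3 genes (LOC101067969, 0.28, and edem3, 0.21), the edem3 protein acting in the disposal of misfolded proteins. Of these 4, sec62 kept its call without any single July library, and the others lost it without Waning moon July library 2 (0.27, 0.24 and 0.18) or 3, Full moon July library 2 or 3 and, for the calnexin, Full moon July library 1. Summed FPKM of pituitary endocrine markers moved the same way, with 18000, 19800 and 17900 at Waning moon July and 65900, 55700 and 43600 at Full moon July. Of 14 of these markers tested, 1 was lower (7.14%, beside 10.8% of all genes) and none higher, with a median of -0.29. Their median centred log2 levels were lower, at -0.05 to 0.10 against 0.24 to 0.91 at Full moon July. The pituitary hormone genes alone summed to 65900, 55600 and 43600 at Full moon July. Of 12 pituitary transcription factors 1 was lower, with a median of -0.02. Their summed FPKM overlapped, at 107 to 125 at Waning moon July and 118 to 131 at Full moon July. With the hormone score without gonadotropins as a covariate, 44 members of the secretory list were lower and 3 higher, and adjusting for the FPKM sum left none past the threshold.

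Ribosomal protein genes were lower at Waning moon July in 74 of 84 tested (88.1%, beside 10.8% of all genes), and none was higher. Their median change was -0.52, and rpl10a, a protein of the large subunit, had 925, 697 and 716 FPKM at Waning moon July and 1152, 1238 and 1145 FPKM at Full moon July (change -0.61, SE 0.12, limma adjusted p = 0.00116). Waning moon July library 1 was the highest of its date, with a list median of 0.21 above the mean of all 24 libraries (log2), against -0.28 and -0.24 in libraries 2 and 3 and 0.48, 0.39 and 0.37 at Full moon July. The count was 44 lower and 1 higher after rescaling to the same sum, 6 lower under quantile normalization and 21 lower when only the 6 libraries were fitted, and it was 44 without Waning moon July library 2 and 48 without library 3. The 40S protein SA (LOC101069505) changed by -0.64, rpl9 by -0.50 and rps12 by -0.68, all past the threshold. Under quantile normalization none of the 4 genes named here passed, with changes of -0.27 to -0.10.

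Of 94 genes of oxidative phosphorylation, the mitochondrial chain that makes ATP, 26 were lower (27.7%, beside 10.8% of all genes) and 5 higher (5.32%, beside 19.5%) at Waning moon July, with a median of -0.19. In all 33.0% were called, near the 30.3% of all genes. Lower members include a cytochrome c oxidase subunit 7A2 (LOC101072717) with 439, 315 and 332 FPKM at Waning moon July and 494, 534 and 510 FPKM at Full moon July (change -0.51, SE 0.13, limma adjusted p = 0.00558). Subunits of complex I (ndufb3, -0.48, and ndufa5, -0.39) and ATP synthase subunit g (LOC101072733, -0.51) were also lower. The 5 higher members, named after their values were seen, are 3 subunits of succinate dehydrogenase (sdha, 0.27; LOC101075255, 0.26; LOC101062817, 0.73), ndufs1 (0.21) and a core subunit of complex III (LOC101077128, 0.23). These 5 calls were lost without Waning moon July library 3, where the changes lay between 0.18 and 0.77, and some of them also without Waning moon July library 2 or any Full moon July library. After rescaling to the same sum the list turned to 21 higher and 5 lower with a median of 0.05. The median of all genes was then 0.26, against 0.06 on FPKM. The sign of this list's change therefore rests on the scaling, while its median lay below that of all genes in both. The count of lower genes was 41 without Waning moon July library 1, 5 without library 2 and 10 without library 3, and 11 without Full moon July library 2 and 15 without library 3.

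**Figure D2:**
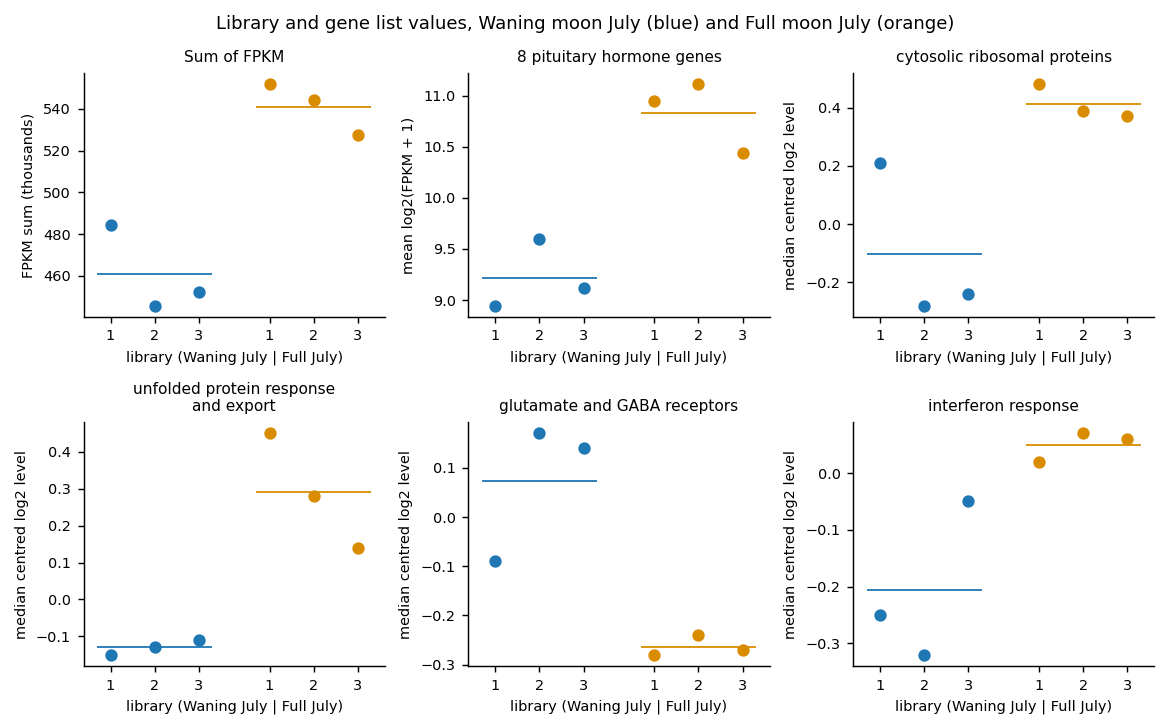
Values per library for Waning moon July (blue, left) and Full moon July (orange, right), with group means as lines: the FPKM sum, the hormone score, and the median log2 level of 4 gene lists after centring each gene on its mean over the 24 libraries. For the ribosomal proteins Waning moon July library 1 lies at 0.21 and the other two at -0.28 and -0.24, and for the receptors library 1 lies at -0.09, nearest to Full moon July.

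Receptors for glutamate and GABA, the main excitatory and inhibitory transmitters of the brain, were higher at Waning moon July. Of 61 tested, 28 were higher (45.9%, beside 19.5% of all genes) and 1 was lower, with a median change of 0.31. A metabotropic glutamate receptor 1 gene (LOC101071408) had 4.31, 7.52 and 8.23 FPKM at Waning moon July and 1.41, 1.37 and 1.36 FPKM at Full moon July, without overlap (change 1.65, SE 0.29, limma adjusted p = 0.00067). The kainate receptor LOC101071348 rose by 1.31 and the AMPA receptor genes LOC101078054 and LOC101064121 by 1.10 and 0.50, all past the threshold. The lower member, named after its values were seen, is another kainate receptor 2 gene (LOC115248621, -1.23). The count was 47 higher after rescaling to the same sum, 16 under median-ratio scaling, and 0 once the FPKM sum was adjusted for, when the median was -0.14. It was 14 without Waning moon July library 2 and likewise without library 3, and 18 without Full moon July library 1 or with only the 6 libraries.

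The summed level of neuronal markers was also higher, though the share of them called, 30.8%, was near the 30.3% of all genes. Their summed FPKM was 2090, 2130 and 2310 at Waning moon July and 1690, 1790 and 1790 at Full moon July, and 4 of 13 tested were higher (30.8%, beside 19.5% of all genes) and none lower; 2 of the 20 neuronal markers measured were at 0. These are synapsin-1 (LOC101073030, 0.78), elavl4 (0.71), stathmin-2 (LOC101077630, 0.34) and snap25 (0.28), named after their values were seen. The call of stathmin-2 was lost without Waning moon July library 3 (0.29) and that of snap25 without any 1 of the 6 libraries (0.25 to 0.32). The part of neuronal content in the rise of receptor genes was not tested. The Na+/K+-ATPase gene LOC101068338, part of the pump that restores the membrane potential, rose by 1.57 (SE 0.17, limma adjusted p = 3.74e-05), with 62, 91 and 85.7 FPKM at Waning moon July and 24.4, 26.6 and 26.6 FPKM at Full moon July.

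Among neuropeptides and their processing genes, 5 of 51 tested were higher (9.8%, beside 19.5% of all genes) and 9 lower (17.6%, beside 10.8%), and the 27.5% called lies near the 30.3% of all genes. The list had a median of -0.04 that was 0.16 after rescaling to the same sum, beside 0.06 and 0.26 for all genes. Pro-neuropeptide Y (LOC101076657), an appetite-raising peptide of the hypothalamus, had 64.7, 124 and 167 FPKM at Waning moon July and 55.6, 18.7 and 64.7 FPKM at Full moon July. The lowest Waning moon July library, at 64.67, and the highest Full moon July library, at 64.66, all but met, and the change of 1.41 (SE 0.43) had a limma adjusted p = 0.0189. The call was lost without Full moon July library 2 (0.87), Waning moon July library 2 (1.33) or Waning moon July library 3 (1.12). The receptor npy8br, which binds peptides of that family, rose by 1.51 (SE 0.30, limma adjusted p = 0.00149), with 7.07, 11.6 and 13.1 FPKM at Waning moon July and 2.29, 3.03 and 3.61 FPKM at Full moon July. Thyrotropin-releasing hormone (trh) rose by 0.75, and the 3 further increases, named after their values were seen, were apelin (apln, 0.34), secretogranin-2 (LOC101068421, 0.50) and adcyap1 (0.54). The call of apln was lost without Full moon July library 1 (0.26). Those of LOC101068421 and adcyap1 were lost without Waning moon July library 2 (0.40 and 0.49) or 3 or Full moon July library 2, and that of adcyap1 also without Full moon July library 1 or 3. The list had 2 higher and 6 lower without Waning moon July library 2, 4 and 5 without Full moon July library 1, and 3 and 6 without Full moon July library 2.

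Lower neuropeptide genes include agrp2, an agouti-related peptide, with 3.65, 3.18 and 3.69 FPKM at Waning moon July and 11.3, 10.1 and 10.8 FPKM at Full moon July (change -1.38, SE 0.25, limma adjusted p = 0.000969). Carboxypeptidase E (cpe), which trims prohormones, fell by 0.65 and a nucleobindin-2 gene (LOC101071051) by 0.59, both past the threshold. The melanin-concentrating hormone precursor (LOC115250245), named after its values were seen, had 188, 98.6 and 276 FPKM at Waning moon July and 670, 670 and 698 FPKM at Full moon July, with a change of -1.97 (SE 0.74, limma adjusted p = 0.0493). That call was lost without any 1 of the 6 libraries or Waxing moon May library 2, with changes between -2.31 and -1.57.

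Immediate early genes, which rise within minutes of cell stimulation, were lower in 17 of 45 tested (37.8%, beside 10.8% of all genes) and higher in 4 (8.89%, beside 19.5%), with a median of -0.23. Without Waning moon July library 2 these were 12 and 1, and without library 3 they were 11 and 2. Outside that list, the probable nuclear hormone receptor HR38 (LOC101076406), of the NR4A type that is induced by activity, had 4.43, 2.99 and 1.96 FPKM at Waning moon July and 35.1, 16.1 and 26.8 FPKM at Full moon July (change -2.69, SE 0.52, limma adjusted p = 0.00131). Within it, the cAMP-responsive element modulator (LOC101061679) had 92.2, 29.6 and 24.6 FPKM at Waning moon July and 224, 218 and 179 FPKM at Full moon July (change -2.31, SE 0.50, limma adjusted p = 0.00261). Neither gene overlapped between the dates.

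Further down were fosl2 (-0.60), jun-D (LOC101076843, -0.89), a dual specificity phosphatase 2 (LOC101079172, -1.74) and the mRNA decay factor ZFP36 (LOC101065621, -0.92), and, named after its values were seen, a c-Fos gene (LOC101078177, -1.32, with 13.6, 16.2 and 13 FPKM at Waning moon July and 69.9, 24.7 and 29 FPKM at Full moon July, and -0.87 without the first of these). The 4 higher members, also named after their values were seen, are egr1 (0.83), egr3 (0.30), a Krueppel-like factor 4 (LOC101078876, 0.77) and a second c-Fos gene (LOC101067832, 0.40). Of these, egr1 kept its call without any single July library, LOC101078876 lost it without Waning moon July library 2 (0.60), and the other two lost it without Waning moon July library 2 (0.27 for egr3 and 0.33) or 3, or Full moon July library 2 or 3, and egr3 also without Full moon July library 1. After rescaling to the same sum 13 were lower and 10 higher and the median was 0.00. The time between capture and dissection is not given in the labels.

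Of 5 C/EBP transcription factors tested, 2 were lower (40%, beside 10.8% of all genes) and 1 was higher (20%, beside 19.5%). cebpd, an inflammation- and glucocorticoid-inducible member, had 28.3, 20.8 and 16.4 FPKM at Waning moon July and 100, 57.2 and 56.1 FPKM at Full moon July (change -1.64, SE 0.32, limma adjusted p = 0.00142). The beta member (LOC101062898) changed by -1.36 (SE 0.44, limma adjusted p = 0.0267) and cebpz by 0.28 (SE 0.08, limma adjusted p = 0.016). The call of the beta member was lost without Full moon July library 1 (-1.03) or Waning moon July library 2 (-1.08) or 3 (-1.28), and that of cebpz without Waning moon July library 3 (0.19) or Full moon July library 2 (0.25). The stress axis links corticotropin-releasing hormone to glucocorticoid action. Of 28 of its genes, 8 were lower (28.6%, beside 10.8% of all genes) and 4 higher (14.3%, beside 19.5%), with a median of -0.23. After rescaling to the same sum 5 were lower and 10 higher. The binding protein of corticotropin-releasing hormone (crhbp) had 19.2, 11.8 and 14.3 FPKM at Waning moon July and 40.9, 43.9 and 50.9 FPKM at Full moon July (change -1.54, SE 0.22, limma adjusted p = 0.00018).

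The glucocorticoid-induced TSC22 domain family protein 3 (LOC101065532) was also lower (-1.05), as was a pyruvate dehydrogenase kinase (LOC101070423, -1.16). The higher members were 2 Krueppel-like factor 15 genes (LOC101071465, 0.79, and LOC101079558, 0.47), the mineralocorticoid receptor nr3c2 (0.33) and a corticotropin-releasing factor receptor 2 (LOC101061221, 0.48), the last 3 named after their values were seen. The receptor lost its call without Waning moon July library 3 (0.38) or Full moon July library 1 (0.35) or 2 (0.44). Of 34 heat shock genes 11 were lower (32.4%, beside 10.8% of all genes) and 3 higher (8.82%, beside 19.5%). These counts became 8 and 8 after rescaling to the same sum and 5 and 2 without Waning moon July library 2. Alpha-crystallin B (LOC101066139), a small heat shock protein, had 37.8, 42.9 and 33.7 FPKM at Waning moon July and 82.3, 65.8 and 88.2 FPKM at Full moon July (change -1.02, SE 0.19, limma adjusted p = 0.00095). The 3 higher members, named after their values were seen, were hspb6 (0.81), hspd1 (0.30) and ST13 (LOC101074401, 0.50), the last without its call when Waning moon July library 1 (0.34) or 2 (0.46) or Full moon July library 2 (0.43) or 3 (0.51) was left out.

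In the prostaglandin pathway 7 of 30 tested were lower (23.3%, beside 10.8% of all genes) and 4 higher (13.3%, beside 19.5%). A prostacyclin synthase gene (LOC101079540) had 5.21, 1.28 and 0.51 FPKM at Waning moon July and 34.1, 30.2 and 22.1 FPKM at Full moon July, without overlap (change -3.40, SE 0.69, limma adjusted p = 0.00187). The prostaglandin E2 receptor EP4 gene LOC101070091 fell by 1.05 and pla2g4a, the phospholipase that frees arachidonic acid, by 0.53. Thromboxane synthase (tbxas1) rose by 0.72, and the other 3 increases, named after their values were seen, were ptges2 (0.29), a multidrug resistance-associated protein 4 (LOC101074266, 0.51) and the prostaglandin F2-alpha receptor (LOC101076066, 0.53). The receptor's call was lost without Waning moon July library 1 (0.36) or 3 (0.59) or any Full moon July library (0.44 to 0.60). The list median was -0.20, and after rescaling to the same sum 5 were lower and 8 higher, and without Full moon July library 2, 4 were lower and 3 higher.

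The circadian clock list was split, with 6 higher (18.2%, beside 19.5% of all genes) and 6 lower (18.2%, beside 10.8%) of 33 tested and a median of 0.03 that was -0.03 under median-ratio scaling. A period 3 gene (LOC101078561) had 16, 16.6 and 15 FPKM at Waning moon July and 8.18, 7.95 and 8.84 FPKM at Full moon July (change 0.86, SE 0.11, limma adjusted p = 9.55e-05). The repressor bhlhe41 rose by 0.88 (SE 0.15, limma adjusted p = 0.000508). A REV-ERB gene (LOC101076758, annotated as nuclear receptor 1D1) had 25.9, 20.9 and 26.9 FPKM at Waning moon July and 51, 46 and 50 FPKM at Full moon July (change -0.97, SE 0.13, limma adjusted p = 0.000117). A period 2-like gene (LOC115246449) fell by 1.09 (SE 0.16, limma adjusted p = 0.000249), and per2 itself overlapped (0.18, SE 0.08, limma adjusted p = 0.0893), though it passed without Full moon July library 1 (0.29).

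Both dates were sampled at around 19:00, so these values hold no rhythm. Of 16 light and melatonin genes, 2 were higher (12.5%, beside 19.5% of all genes) and 1 lower (6.25%, beside 10.8%). In all 18.8% were called, fewer than the 30.3% of all genes. The higher ones were mtnr1a, a melatonin receptor (0.60), and eya3 (0.41). The lower one was an RPE-retinal G protein-coupled receptor (LOC101077540, -0.67), without its call when Waning moon July library 2 (-0.59) or Full moon July library 3 (-0.48) was left out. Tryptophan hydroxylase 1 (tph1), which starts serotonin and melatonin synthesis in the pineal, had 4.65, 3.85 and 7.17 FPKM at Waning moon July and 5.16, 37.7 and 115 FPKM at Full moon July and did not pass (change -2.32, SE 1.11, limma adjusted p = 0.117). Without Full moon July library 1 it did, at -3.46, and the list then had 2 higher and 4 lower. Summed FPKM of 9 photoreceptor and pineal markers lay between 12.1 and 24.2 at Waning moon July and between 15.8 and 407 at Full moon July, highest in the libraries that were high in tph1; their part in the result was not tested.

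Of 23 thyroid axis genes, 7 were higher (30.4%, beside 19.5% of all genes) and 2 lower (8.7%, beside 10.8%) at Waning moon July, with a median of 0.22 that kept its sign under the scalings tried. The thyroid hormone transporter gene LOC101072817, of the OATP1C1 type, had 4.29, 6.39 and 5.68 FPKM at Waning moon July and 1.56, 1.68 and 1.4 FPKM at Full moon July (change 1.33, SE 0.19, limma adjusted p = 0.00018). A second transporter gene (LOC101065902, 0.81) and a thyroid hormone receptor alpha gene (LOC101071184, 0.68) also rose. The lower members, named after their values were seen, were the inactivating deiodinase dio3a (-0.83) and Krueppel-like factor 9 (LOC101076157, -0.99), whose gene is induced by thyroid hormone in other vertebrates.

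Vessel genes were among those that rose. Claudin 5 (cldn5), a tight junction protein of the blood-brain barrier, had 67.2, 53.9 and 56.6 FPKM at Waning moon July and 22.1, 27.3 and 20.6 FPKM at Full moon July (change 1.31, SE 0.15, limma adjusted p = 4.23e-05). Of 14 endothelial markers 8 were higher (57.1%, beside 19.5% of all genes) and 1 lower (7.14%, beside 10.8%). The lower one was a platelet endothelial cell adhesion molecule gene (LOC101069042, -0.55, named after its values were seen). The 14 markers include cldn5 itself and the OATP1C1 type of transporter. The summed FPKM of the 14 was 246, 235 and 249 at Waning moon July and 176, 191 and 165 at Full moon July, and that of pericyte and smooth muscle markers was 419, 312 and 379 at Waning moon July and 495, 550 and 530 at Full moon July. The part of vessel content in the changes of cldn5 and of the transporter genes was not tested.

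The calls among collagens were decreases, but fewer collagens were called (20%) than genes in all (30.3%). Of 25 collagens 5 were lower (20%, beside 10.8% of all genes) and none higher (median -0.25), among them col1a2, of fibrous collagen, with 8.83, 8.11 and 8.04 FPKM at Waning moon July and 18.5, 20.9 and 14.7 FPKM at Full moon July (change -1.02, SE 0.21, limma adjusted p = 0.00195). The others were col16a1 (-0.71), col23a1 (-1.12), a collagen 1 alpha-1 gene (LOC101076114, -1.09) and col18a1 (-0.69, named after its values were seen). The transcription factor osr1, found in meningeal fibroblasts among other cells, rose by 2.39 (SE 0.49, limma adjusted p = 0.00187), with 23.1, 35.1 and 45.5 FPKM at Waning moon July and 10.3, 3.43 and 4.59 FPKM at Full moon July. After rescaling to the same sum 5 collagens were lower and 2 higher. Of 13 fibroblast and meningeal markers tested 3 were lower (23.1%, beside 10.8% of all genes) and 1 higher (7.69%, beside 19.5%), with a median of -0.16. In all 30.8% were called, near the 30.3% of all genes. The counts include osr1 and the collagens col1a2 and LOC101076114, which that list shares. The summed FPKM of these markers lay between 173 and 188 at Waning moon July and between 173 and 208 at Full moon July. The part of these cells in the collagen changes was not tested.

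Of 53 interferon response genes 10 were lower (18.9%, beside 10.8% of all genes) and 2 higher (3.77%, beside 19.5%), with a median of -0.33. The regulator irf7 had 3.6, 2.99 and 3.29 FPKM at Waning moon July and 5.75, 5.47 and 5.49 FPKM at Full moon July (change -0.62, SE 0.10, limma adjusted p = 0.000491), and the immunoproteasome genes LOC101065848 and psmb8 changed by -0.93 and -0.55. The higher members were adar, an RNA editing enzyme (0.44), and irf8 (0.65, named after its values were seen), which lost its call without Full moon July library 1 (0.48). Without Waning moon July library 2, 5 members were lower. Complement C1q, which microglia make in the brain, was lower in its A, B and C chains (LOC105418295, -1.28; LOC101062052, -0.77; LOC101061147, -0.76), while a P2Y12 purinoceptor gene of microglia (LOC101080055) was 1.07 higher; all 4 were named after their values were seen. Without Waning moon July library 2 the B and C chains no longer passed (-0.62 and -0.58), nor did the C chain without Full moon July library 1 (-0.64) or 2 (-0.79). Of 9 microglial and macrophage markers 3 were lower (33.3%, beside 10.8% of all genes) and 1 higher (11.1%, beside 19.5%), with a median of -0.18. The marker list includes the C1q chains and P2Y12, so these counts are not separate from the genes just named. The summed FPKM of the 9 markers was 81, 75.5 and 107 at Waning moon July and 129, 114 and 113 at Full moon July. Their median centred log2 levels overlapped, with -0.24, -0.31 and 0.23 at Waning moon July and 0.10, -0.07 and 0.16 at Full moon July. The part of these cells in the changes was not tested. After rescaling to the same sum 5 interferon genes were lower and 6 higher.

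The remaining lists had smaller shares of calls than the 30.3% of all genes. Of 36 inflammation genes 4 were lower (11.1%) and 1 higher (2.78%), the metalloreductase steap4 (1.67, SE 0.38, limma adjusted p = 0.00388); the lower ones were socs3 (-1.15), a C-reactive protein gene (LOC105417795, -0.63), an NF-kappa-B inhibitor alpha gene (LOC115248712, -0.76) and a monocyte chemotactic protein (LOC101065036, -0.57, named after its values were seen). None of the 4 passed without Full moon July library 1, where their changes lay between -0.79 and -0.43, and each of them also failed without at least 1 Waning moon July library. The list then had 1 higher and 0 lower, against 1 and 8 without Waning moon July library 1 and 1 and 7 without Full moon July library 2. Of 51 hypoxia genes 5 were higher (9.8%, beside 19.5% of all genes) and 7 lower (13.7%, beside 10.8%), with the transferrin receptor tfrc at -1.22 and nfe2l1, a stress transcription factor, at 2.89, and 6 or 7 calls in all remained without Waning moon July library 2 or 3 or Full moon July library 2 or 3. Of 35 cell cycle genes 3 were higher and 1 lower, of 33 cholesterol synthesis genes none was higher and 2 were lower, and of 6 cold-inducible genes none passed the limma threshold. The cholesterol list turned to 13 higher and 2 lower of 33 after rescaling to the same sum, beside 7320 higher and 825 lower of all 17058 genes. Without single July libraries the cell cycle counts fell to 2 higher and none lower and the cholesterol counts lay between 1 and 4 lower.

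**Figure D3:**
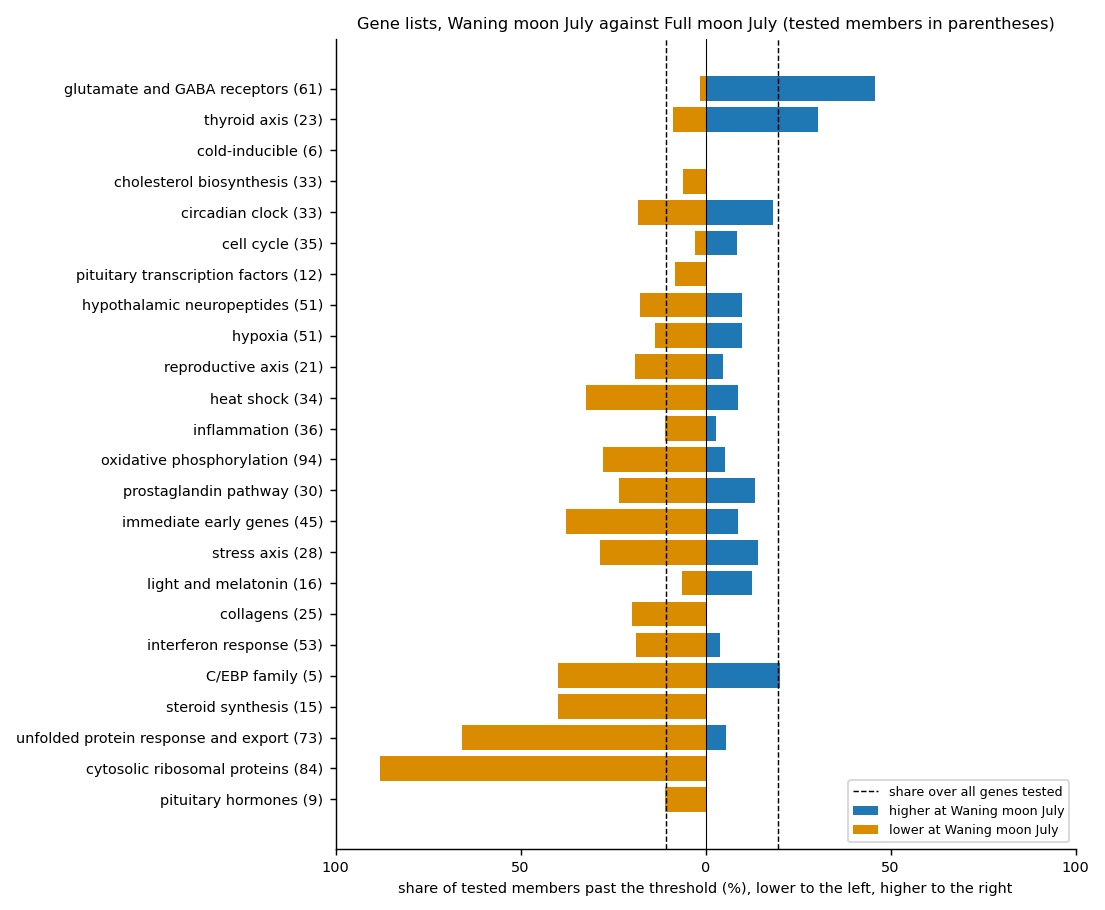
Share of the tested members of each of 24 gene lists that was higher (blue, to the right) or lower (orange, to the left) at Waning moon July at a limma adjusted p under 0.05, with the number tested in parentheses and the shares of all genes as dashed lines. Ribosomal proteins reach 88.1% lower and secretory genes 65.8% lower, and the receptors reach 45.9% higher.

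Some of the largest changes lay in genes of none of these themes. Genes for egg proteins, which are best known from ovary and liver, were lower at Waning moon July: zona pellucida sperm-binding protein 3-like (LOC105416883), an egg coat protein, had 8.79, 26.8 and 20.8 FPKM at Waning moon July and 122, 121 and 598 FPKM at Full moon July (change -3.52, SE 1.21, limma adjusted p = 0.0338). Its close relative LOC101080196 changed by -3.39 (SE 1.13, limma adjusted p = 0.0293), and reads shared between the pair make each level uncertain. Both calls were lost without any 1 Waning moon July library or without Full moon July library 3, where the changes were -2.76 and -2.73. A vitellogenin gene (LOC101062271), an egg yolk precursor, had 0.08, 0.23 and 0.12 FPKM at Waning moon July and 31.5, 7.11 and 4.64 FPKM at Full moon July (change -3.32, SE 0.68, limma adjusted p = 0.00194).

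Lipoprotein lipase (lpl), which frees fatty acids from circulating fat, had 16.2, 7.55 and 7.6 FPKM at Waning moon July and 46.5, 57 and 49.5 FPKM at Full moon July (change -2.26, SE 0.32, limma adjusted p = 0.00016). marveld1 (-2.48), tmem100 (-2.46), phlda2 (-2.22), an ADP-ribosylation factor-like 5B gene (LOC101075961, -2.21), a maternal B9.15 protein gene (LOC101071953, -2.19) and a 40S ribosomal protein S20-like gene (LOC115251339, -2.66) complete the 15 largest decreases together with LOC101069999, a histidine triad protein gene. The last was listed at 0 in all 3 Waning moon July libraries and at 5.73, 3.15 and 4.95 FPKM at Full moon July.

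The 15 largest increases were led by nfe2l1, with 4.65, 10.7 and 7.56 FPKM at Waning moon July and 0, 0.4 and 0 FPKM at Full moon July (change 2.89, SE 0.56, limma adjusted p = 0.00124). The homeobox gene LMX1A (LOC101079432) had 16.7, 15.6 and 11.1 FPKM at Waning moon July and 4.01, 3.43 and 2.28 FPKM at Full moon July (change 1.87, SE 0.26, limma adjusted p = 0.00016). The neuronal calcium sensor visinin-like 1 (LOC101072562) rose by 1.86 (SE 0.29, limma adjusted p = 0.000334), with no overlap between the dates. The rest were an AN1-type zinc finger 5 gene (LOC101077584, 2.06), fam241a (1.97), TAFA-5 (LOC115251130, 1.59), relaxin receptor 2 (LOC101061693, 1.40), b3galt4 (1.35) and a RUN domain 3A gene (LOC101067983), listed at 0 in all 3 Full moon July libraries and at 0.82, 4.03 and 2.89 FPKM at Waning moon July. fam241a did not pass without Full moon July library 3 (1.64), nor LOC101067983 without Waning moon July library 2.

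The same step 1 lunar cycle earlier, Waning moon June against Full moon June, shares no library with the July step and had 2639 calls (15.5% of the genes tested, 9.32% higher and 6.16% lower). Of the genes called, 1640 passed in the same direction in both steps, 31.8% of the July calls and 62.1% of the June calls, and 15 passed in opposite directions. In the June step 57 of 84 ribosomal protein genes were lower and none higher (median -0.45). Oxidative phosphorylation had 35 of 94 lower and 1 higher (median -0.275), and the secretory list 27 of 73 lower and 1 higher (median -0.30). Of 61 glutamate and GABA receptors 13 were higher and 4 lower, and of 25 collagens 3 were higher and none lower. A direct test of the July step against the June step called 19 genes (0.111%), 10 with a higher (0.0586%) and 9 with a lower (0.0528%) July change, and 2142 had an unadjusted limma p under 0.05. The count was 11 without Waning moon July library 2 or 3, Full moon July library 1 or Waning moon June library 1 or 3, and 10 without Full moon June library 3. It was 4 when only the libraries of these dates were fitted, and of the 10 genes named from this test LOC101076758 and LOC101079150 then passed. LH beta, at -6.02 in July and -1.42 in June, was not among them (difference -4.60, limma adjusted p = 0.283).

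The genes that did differ were mostly flat or opposite in June. The EGF domain gene egfl6 had 2.27, 2.82 and 2.32 FPKM at Waning moon July and 8.33, 10.3 and 10.9 FPKM at Full moon July, a step of -1.64 (SE 0.13) in July and -0.46 (SE 0.13) in June (difference -1.18, limma adjusted p = 0.006). An aminopeptidase N gene (LOC101079150), a surface peptidase, had 5.55, 4.65 and 6.46 FPKM at Waning moon July and 16.6, 20.9 and 20.7 FPKM at Full moon July, a step of -1.64 in July and -0.09 in June (difference -1.55, limma adjusted p = 0.006). The snail-type repressor sna1 stepped by -1.01 in July and 0.04 in June (difference -1.05, limma adjusted p = 0.006).

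Steps of opposite sign were seen in others. The June steps of LOC101076758, napepld and LOC101072527 did not pass by themselves (limma adjusted p = 0.126, 0.216 and 0.348), while those of the other genes given here did. The REV-ERB gene LOC101076758 changed by -0.97 in July and 0.29 in June (difference -1.27, limma adjusted p = 0.006) and a cyclin-dependent kinase inhibitor 1-like gene (LOC105417819) by -0.40 in July and 0.93 in June (difference -1.33, limma adjusted p = 0.006). napepld, which makes N-acylethanolamine lipids, changed by 0.51 in July and -0.12 in June (difference 0.63, limma adjusted p = 0.006), and the protein phosphatase 1 regulatory subunit 1B-like gene LOC105419976 by 0.20 in July and -0.47 in June (difference 0.66, limma adjusted p = 0.006). A ROR-beta-like nuclear receptor gene (LOC101076680) changed by 0.30 in July, not past the threshold (limma adjusted p = 0.0867), and by -0.79 in June (difference 1.09). An inter-alpha-trypsin inhibitor gene (LOC101072527) changed by 0.79 in July and -0.17 in June (difference 0.96). The uncharacterized LOC101067982 changed by 1.10 in July and -1.49 in June (difference 2.59). These 3 complete the 10 genes named by the rule. The differences of LOC101076680 (1.07) and LOC101072527 (0.92) lost their calls without Full moon July library 1, that of LOC101067982 without Full moon July library 2 (2.52) or 3 (2.36), and all 3 without at least 1 Waning moon July library and at least 1 June library. The July step of LOC105417819 alone lost its call without Waning moon July library 1 (-0.24) or 2 or Full moon July library 1 or 3, and that of LOC105419976 without Waning moon July library 1 (0.13) or 3, any Full moon July library or Waxing moon May library 2, while their differences from June kept theirs.

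**Figure D4:**
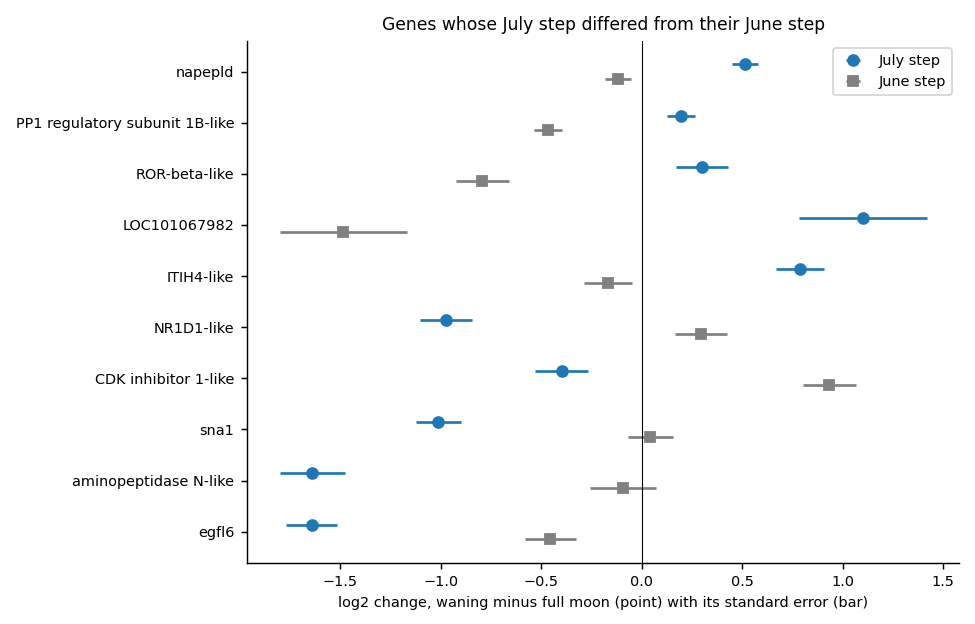
Log2 change from full to waning moon in July (blue circles) and in June (grey squares) for the 10 genes with the smallest p for the difference, with bars of 1 standard error. For egfl6 the July step is -1.64 and the June step -0.46, and for 5 of the genes the July change is the higher one.

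Against the mean of the other 3 moves from a spring-tide to a neap-tide date (Waxing minus New moon May, Waning minus Full moon June, Waxing minus New moon June), the July step differed in 741 genes (4.34%), 449 with a higher (2.63%) and 292 with a lower (1.71%) July change. The balance of directions rested on the scaling, with 1213 higher and 197 lower after rescaling to the same sum and 320 higher and 329 lower under median-ratio scaling. egfl6 (difference -1.40) and sna1 (-1.03) again differed, as did the transcription repressor dr1 (-0.71), the co-chaperone fkbp4 (-0.68) and the inactive carboxypeptidase LOC101062215 (-1.06) downwards. napepld (0.71), ankrd29 (0.92), LOC101072527 (0.97), a splicing factor 5 gene (LOC101079760, 1.06) and a striatin gene (LOC101074653, 0.80) differed upwards. The July step of LOC101079760 by itself did not pass (0.30, SE 0.13, limma adjusted p = 0.084). Brain aromatase was lower by 1.01 than in the mean of the other 3 steps (limma adjusted p = 0.0159), calreticulin LOC101074526 by 1.57 (limma adjusted p = 0.00474) and col1a2 by 1.15 (limma adjusted p = 0.0145), while pro-neuropeptide Y was higher by 2.18 (limma adjusted p = 0.0226). Of these 4, calreticulin kept its call without any single July library; aromatase lost it without Waning moon July library 3 (-1.01), and col1a2 (-1.04) and pro-neuropeptide Y (1.64) without Full moon July library 2 or Waning moon July library 2 or 3. The count was 147 without Waning moon July library 2 and 163 without library 3, and 1659 without library 1, and it was 437, 176 and 429 without Full moon July library 1, 2 and 3 in turn.

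Set beside the other dates, sna1 was among the genes that stood apart at Full moon July, and egfl6 among those at Waning moon July. sna1 averaged 3.41 ± 0.355 FPKM at Waning moon July and 7.93 ± 1.05 FPKM at Full moon July, while the means of the other 6 dates lay between 2.87 and 3.56 FPKM. egfl6 averaged 2.47 ± 0.304 FPKM at Waning moon July and 9.86 ± 1.36 FPKM at Full moon July, and between 5.97 and 9.88 FPKM on the other dates (SD, n = 3 each). Highest at Full moon July as well were phlda2 (37.0 FPKM), the cAMP-responsive element modulator (207 FPKM), cebpd (71.2 FPKM) and the prostacyclin synthase gene (28.8 FPKM). Their Waning moon July means of 7.61, 48.8, 21.9 and 2.33 FPKM lay within the other 6 dates. Those spanned 6.43 to 12.1, 36.8 to 97.5, 17 to 39.6 and 0.73 to 12.1 FPKM in turn. At Waning moon July lpl, at 10.5 FPKM, lay below all other dates (15.1 to 51 FPKM). LH beta averaged 8006 ± 941 FPKM at Full moon July, near New moon May at 6501 ± 2675 FPKM and Full moon June at 7034 ± 3603 FPKM, and 199 ± 218 FPKM at Waning moon July, below Waxing moon June at 649 ± 659 FPKM by less than the SD of that date. Pro-neuropeptide Y at Waning moon July, at 119 ± 51.6 FPKM, was near New moon May at 124 ± 28.6 FPKM.

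**Figure D5:**
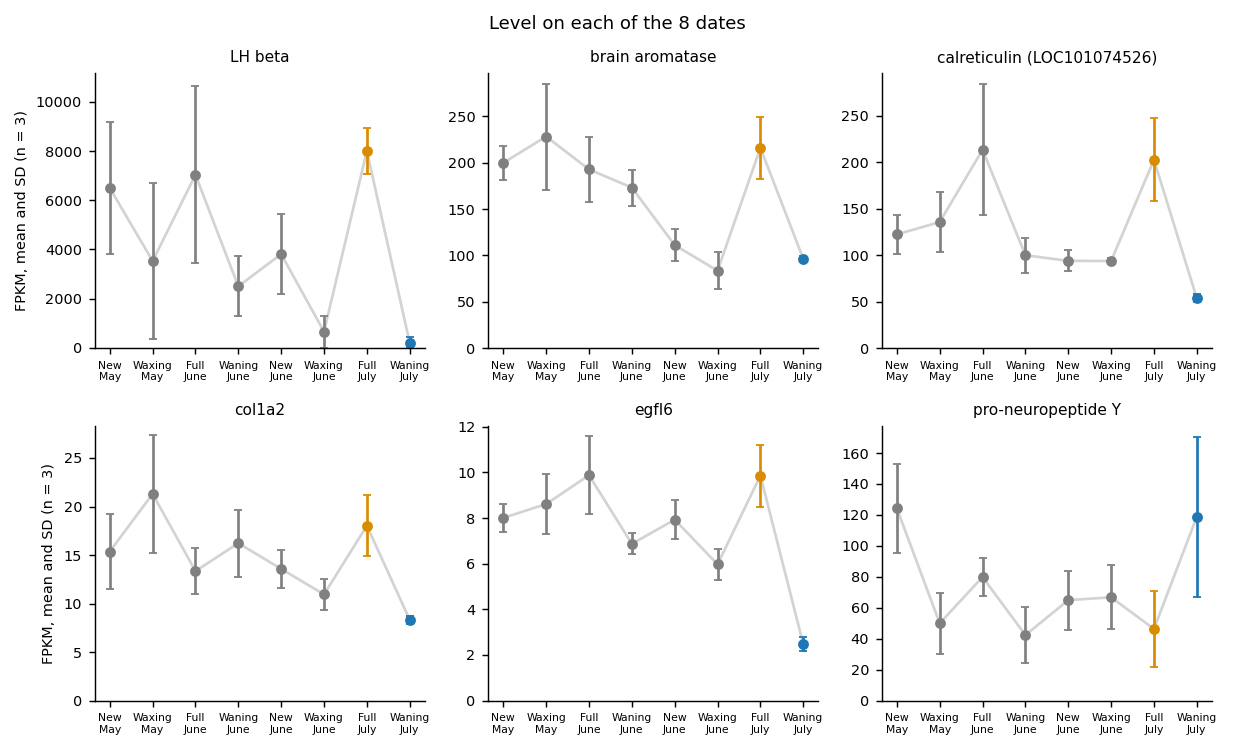
Mean FPKM with the SD of 3 libraries on each of the 8 dates in their order for 6 genes, with Full moon July in orange, Waning moon July in blue and the other dates in grey. egfl6 lies at 2.47 FPKM at Waning moon July and between 5.97 and 9.88 FPKM on the other dates, and aromatase at 96.4 FPKM at Waning moon July and 216 FPKM at Full moon July.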

How the data were processed

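The authors deposited FPKM for 24935 genes and transcripts in 24 libraries, with 2 decimals. Per the labels' protocols, libraries were strand-specific, from poly-A RNA, with paired reads of 100 bases, and the submitters' processing notes name HISAT2 2.0.4 and RSEM 1.2.12, while a genome build was not given in these sources. Gene names are those of the deposited table, and 448 tested rows without a name were left unnamed.

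From the deposited FPKM, log2(FPKM + 1) was computed, which understates fold changes of low genes. Genes with a mean of at least 1 FPKM were fitted with limma 3.58.1 (R 4.3.3) with an intensity trend, all 24 libraries as 8 dates, and Benjamini-Hochberg adjustment at 0.05. The fit was tested on simulated data with independent noise in each gene. Those data held no shift shared by the genes of a library. That test therefore cannot show how the fit handles the difference in FPKM sum between the dates. Single library values were compared by exact two-sided permutation (Python 3.11.15). Libraries were grouped by the labels' sampling point, and no library was removed.

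By rule, the text names the 15 largest increases and decreases that passed without overlap and have a name, up to 4 members of each of the 24 lists by p, gnrh1, cebpd, the hormone genes, bhlhe41, per2 and cldn5, and 5 genes per direction for each comparison of steps. The members, the lists and this rule were chosen with earlier results of these data known, and genes named outside the rule are said to be so; 1 gene that the rule names is not reported here. Alternatives were pseudocounts of 0.1 and 5, no filter or a mean of 5 FPKM, scaling to the same sum (as TPM), median-ratio and quantile scaling, no trend, the compared libraries alone, a replicate block, covariates and leaving out single libraries.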

Additional observations from a re-analysis of the deposited data

Results flagged for a closer look

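Results are given here because the limma test of the difference itself, adjusted over all genes at 0.05, separated the July step from another step of the same kind. The groups hold 3 libraries, too few for a test of a single library that lies apart from its group. All values are differences of log2 changes, July step minus the other. Many of the genes were named for their July step, by rule or after their values were seen. The differences reuse those July values, so the named genes do not stand for their lists. Over all genes tested, 0.111% differed from the June step and 4.34% from the other 3 steps.

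Against the June step, the difference was -1.27 for LOC101076758 (a REV-ERB gene), -1.33 for LOC105417819 (a cyclin-dependent kinase inhibitor), -1.05 for sna1, -1.55 for LOC101079150 (an aminopeptidase N) and -1.18 for egfl6. It was 0.63 for napepld, 0.66 for LOC105419976, 1.09 for LOC101076680, 2.59 for LOC101067982, 0.96 for LOC101072527 and 0.99 for LOC101079760 (a splicing factor 5 gene).

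Against the mean of the other 3 spring-to-neap steps, the secretory genes named above had lower July changes. The differences were -1.57 for LOC101074526 and -0.9 for calr (calreticulins), -1.61 for creld2, -0.88 for pdia3, -1.53 for hspa5 and -1.55 for hsp90b1, with the higher members not among them. The collagen genes with the smallest p in the July step did too, with differences of -0.65 for col16a1, -0.79 for col23a1, -1.15 for col1a2 and -1.08 for LOC101076114. The receptor genes with the smallest p in the July step had higher July changes, with differences of 1.26 for LOC101071408, 0.73 for LOC101078054, 0.47 for LOC101064121 and 1.15 for LOC101071348. So did synapsin-1 (LOC101073030, 0.68), visinin-like 1 (LOC101072562, 1.2), the Na+/K+-ATPase gene LOC101068338 (1.17) and LMX1A (LOC101079432, 1.34).

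In the reproductive, neuropeptide and stress lists the difference was -1.01 for brain aromatase (pfcyp19b-tstr), 0.59 for the receptor LOC101075421, 2.18 for pro-neuropeptide Y (LOC101076657), 1.51 for npy8br and 0.64 for LOC101061221. Among immune genes it was -0.57 for irf7, -0.87 for LOC101065848 and -1.21 for the C1q A chain (LOC105418295). Among clock, light, prostaglandin and vessel genes it was 0.7 for LOC101078561, -0.9 for LOC101076758, -0.87 for LOC101077540, 0.84 for tbxas1, 0.3 for ptges2 and 0.62 for cldn5.

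Further differences from the other 3 steps were -1.87 for marveld1, -1.63 for lpl, -1.65 for phlda2, -1.56 for LOC101079172, -0.98 for tfrc, -0.71 for dr1, -0.68 for fkbp4, -1.06 for LOC101062215, -0.9 for LOC105417819, -1.03 for sna1, -1.28 for LOC101079150 and -1.4 for egfl6. On the higher side they were 0.81 for hspb6, 0.71 for napepld, 0.41 for LOC105419976, 0.61 for LOC101076680, 1.44 for LOC101067982, 0.97 for LOC101072527, 0.92 for ankrd29, 1.06 for LOC101079760 and 0.8 for LOC101074653.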

How the results depend on the processing

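The 5165 genes called in the July step became 8145 after scaling to the same sum, 3200 with only the 6 libraries and 19 when adjusted for the FPKM sum, and lay between 3023 and 5578 with single libraries left out; the other alternatives gave 4168 to 5216. The 19 genes that differed from the June step became 4 with only the libraries compared and 10 to 27 with single libraries left out, and 14 to 24 otherwise. The 741 that differed from the other 3 steps became 1410 after scaling to the same sum, 468 without a filter, 26 when adjusted for the FPKM sum and 147 to 1659 with single libraries left out, and 649 to 879 otherwise; a filter or fit on the libraries compared is here the same as on all, so it gave no further value. Replicate numbers did not pair the libraries (correlations of same-numbered deviations -0.0504, -0.0158 and 0.0342), and the replicate block gave 5047, 17 and 676 genes in these comparisons, and of the genes named it ended the calls of edem3 and LOC101076066. Of 175 single-gene differences that passed, 133 kept their sign but no longer passed when adjusted for the FPKM sum. Further genes that had passed turned sign in that fit and did not pass there either. They are listed below and are not in the 133. The count no longer passing was 32 with only the libraries compared, 17 under median-ratio scaling and 14 with the hormone score as a covariate. It was 13 under quantile normalization, 10 without a filter, 8 after scaling to the same sum and at most 4 with another pseudocount or no trend. Without Waning moon July library 2 or 3 it was 32 each, without library 1 it was 11, and without Full moon July library 1, 2 and 3 in turn it was 22, 23 and 23. The hormone score differed by -1.81 to -1.48 and the FPKM sum by -92250 to -72890 with single libraries left out.

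Changes turned sign under adjustment for the FPKM sum for LOC101061166 (0.13), cga (0.50), LOC101067051 (0.42), psmb8 (0.074), socs3 (0.23), LOC115248712 (0.11), ndufb3 (0.059), LOC101072733 (0.016), gnrh1 (0.70), LOC101064982 (1.89), prl (2.30), LOC101065036 (0.31), LOC101061147 (0.26), LOC101069714 (-0.14), egr1 (-0.26), egr3 (-0.036), apln (-0.035), LOC101068421 (-0.21), adcyap1 (-0.17), sdha (-0.012), LOC101061221 (-0.015), elavl4 (-0.16) and LOC101077630 (-0.034), none of them past the threshold there. Pro-opiomelanocortin (LOC101064982) turned to 0.16 under quantile normalization and 0.046 with the hormone score as a covariate, and prolactin (prl) to 0.093 and 0.73; with single libraries left out prolactin lay between -0.64 and 0.0092, the last without Waning moon July library 1. The cause of these moves was not tested. Read depth is unknown, so no detection limit can be given for low genes.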
